A study of Homo sapiens with 12 samples.

Results

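The named long noncoding and host-gene RNAs described here are 217 of the 14232 genes measured with a single-symbol probe set on 12 arrays of LN229, an established human glioblastoma cell line. They were chosen by a rule on names, set with earlier results of these data known. Their symbols start with LINC or SNHG and a number, end in -AS1, -AS2, -DT or -IT1, or start with MIR and end in HG, and each gene is represented by its brightest probe set on average. By that rule 118 were LINC genes, 67 antisense transcripts, 20 divergent transcripts, 9 intronic transcripts and 3 miRNA host genes (MIR600HG, MIR646HG and MIR3667HG). No SNHG gene and no MIR210HG was among them. A further 167 probe sets with a symbol of this kind are annotated with more than 1 gene and were not used. Of these, 9 carry an SNHG symbol and 10 a miRNA host gene symbol. RefSeq lists all 217 as long noncoding RNAs, in keeping with their names.

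Long noncoding RNAs are transcribed and often spliced like messenger RNAs but carry no long reading frame, and many occur at low levels and in few cell types. An antisense transcript runs against a neighbouring or overlapping gene, a divergent transcript starts near another gene's promoter and runs away from it, and a host gene carries a miRNA or snoRNA within its introns or exons. In low oxygen the HIF-1A and HIF-2A proteins, encoded by HIF1A and EPAS1, escape degradation, pair with ARNT and bind a short DNA core, and noncoding as well as coding genes are known among their targets. The study asked which responses to hypoxia depend on which of these subunits.

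Cells were in 1 of 4 groups with 3 arrays each: 1% oxygen with HIF1A siRNA, 1% oxygen with HIF2A siRNA, 1% oxygen with control siRNA, and 20% oxygen (normoxia) with control siRNA. All cells had been transfected with an siRNA 24 h after seeding, entered their oxygen condition 48 h later and were harvested after 16 h, and no untransfected cells and no normoxic cells with HIF siRNA were analysed here. All arrays are of 1 cell line. The labels do not say whether the replicates were grown separately, so the p-values reflect the spread among these samples alone, and that spread may be technical.

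The siRNA targets matched the labels. HIF1A read 8.20, 9.06 and 7.74 on the log2 scale with HIF1A siRNA and between 11.26 and 11.72 in hypoxic controls. EPAS1 read 7.18, 6.99 and 7.18 with HIF2A siRNA and between 9.57 and 9.83 in hypoxic controls. With HIF1A siRNA EPAS1 too was lower, reading 8.60, 8.08 and 8.02. Of 8 glioma and astroglial markers 7 were measured, all above the lower quartile of every array (VIM mean 12.2). Among markers of other cell types, above it on every array were 3 of 4 neuronal, 2 of 3 oligodendrocyte and 1 of 5 microglial. So were 3 of 4 endothelial and 1 of 3 epithelial markers. Means of these other markers ran between 2.33 (EPCAM) and 8.39 (SYT1). None of them was called in hypoxia, with HIF1A siRNA or with HIF2A siRNA, where 12.3%, 11.1% and 0.00703% of all genes were. Of the 7 glioma and astroglial markers, 2 were called lower in hypoxia (all genes, 8.95%). With HIF1A siRNA 1 of these 7 was called higher (all genes, 0.857%), and with HIF2A siRNA none was called. Across probe sets, r was 0.983 to 0.994 between arrays of a group. The third HIF1A siRNA array had a narrower range than the rest, with an upper quartile of 7.88 against up to 8.57.

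Most of the noncoding RNAs gave low signals. A level here is a probe set's deposited log2 value. Probe sets differ in how brightly they respond, so levels place a gene within its array and do not rank amounts of RNA. The lower quartile of the 12 arrays lay between 4.73 and 4.79. On all 12 arrays 94 of the 217 (43.3%) were above it, 53 were above it on some arrays and 70 (32.3%) on none. Of all genes, 77.1% were above it on every array and 16.1% on none. Above the array median on all 12 arrays were 13 of the noncoding RNAs (5.99%) and 46.6% of all genes. Their levels had a median of 4.93 (range 2.02 to 8.07), against 6.99 (1.73 to 13.5) over all genes.

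The share above the lower quartile varied by class, which was not tested. Divergent transcripts had the highest share, with 14 of 20 (70.0%) above it on all arrays, against 29 of 67 antisense transcripts (43.3%), 46 of 118 LINC genes (39.0%), 3 of 9 intronic transcripts and 2 of 3 miRNA host genes. The number above it on all 3 arrays of a group was 113 with HIF1A siRNA, 103 with HIF2A siRNA, 105 in hypoxic controls and 106 in normoxia. Of all genes it was 11324, 11258, 11283 and 11274 in the same order. The HIF1A siRNA group, with the highest count, holds the array of narrow range, whose lower quartile was the lowest (4.73). Whether the groups differ in this count was not tested. The highest mean levels were 8.07 for CTBP1-DT, 8.05 for EPB41L4A-DT, 8.01 for ZNF667-AS1, 7.92 for LINC02076, 7.83 for ANKRD13C-DT and 7.81 each for LINC00339 and ENTPD1-AS1. The lowest were 2.02 for LINC00314 and 2.13 for LINC00301. By place in the genome, 22 of the 217 (10.1%) lie on chromosome 21, against 1.35% of the 14205 genes found in RefSeq.

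**Figure D1:**
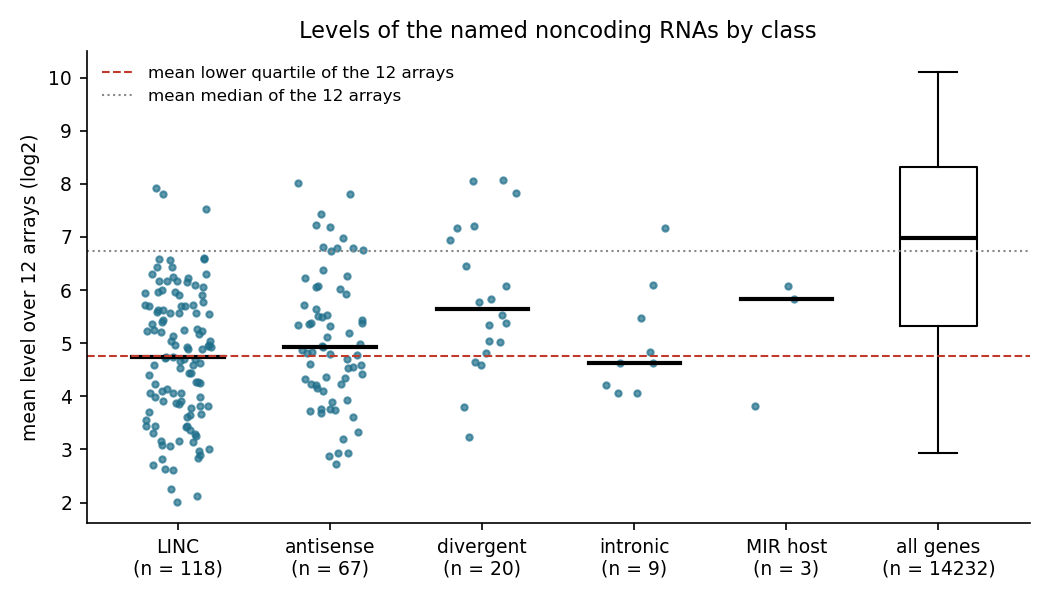
Mean level over 12 arrays (log2) of each of the 217 noncoding RNAs by class, with a bar at the class median, beside a box for all 14232 genes (median, quartiles and 5th to 95th percentile). Divergent transcripts have the highest median among the larger classes (5.65), above 4.92 for antisense transcripts and 4.74 for LINC genes, and all lie below the 6.99 of all genes.

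LINC01587, an intergenic RNA on chromosome 4, showed the largest change of the 217 in hypoxia, and with HIF1A siRNA it lay close to its normoxic level. It read 5.81, 5.63 and 5.61 with HIF1A siRNA, 7.56, 7.48 and 7.88 with HIF2A siRNA, 7.86, 7.73 and 7.27 in hypoxic controls, and 5.38, 5.42 and 5.38 in normoxia. Hypoxic control and HIF2A siRNA arrays overlapped, and all 6 lay above the 6 arrays of the other groups. Hypoxia raised it by 2.23 ± 0.15 (SE, n = 3 arrays per group), a 4.68-fold rise with limma's adjusted p = 1.2e-05 and rank 16 among the rises of the 14232 genes. HIF1A siRNA lowered it by 3.83-fold relative to hypoxic controls (log2 change -1.94 ± 0.15, adjusted p = 1.0e-04 by limma).

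With HIF1A siRNA in hypoxia, LINC01587 differed from normoxia by 0.29 (95% interval -0.05 to 0.63, limma adjusted p = 0.159), which left 13.0% of the log2 rise. HIF2A siRNA changed it by 0.02 (95% interval -0.32 to 0.36), and 101% of the rise was left. The HIF1A siRNA level was below the HIF2A siRNA level by a log2 change of -1.96 (limma adjusted p = 8.7e-05). These comparisons share arrays, so their values are not independent of each other. The rise in hypoxia and the fall with HIF1A siRNA passed the test under every alternative setting tried. Its flanking coding genes in RefSeq did not pass either test: STK32B, a kinase gene, changed by -0.13 in hypoxia and -0.00 with HIF1A siRNA, and EVC2, a ciliary hedgehog regulator, by -0.05 and 0.18.

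**Figure D2:**
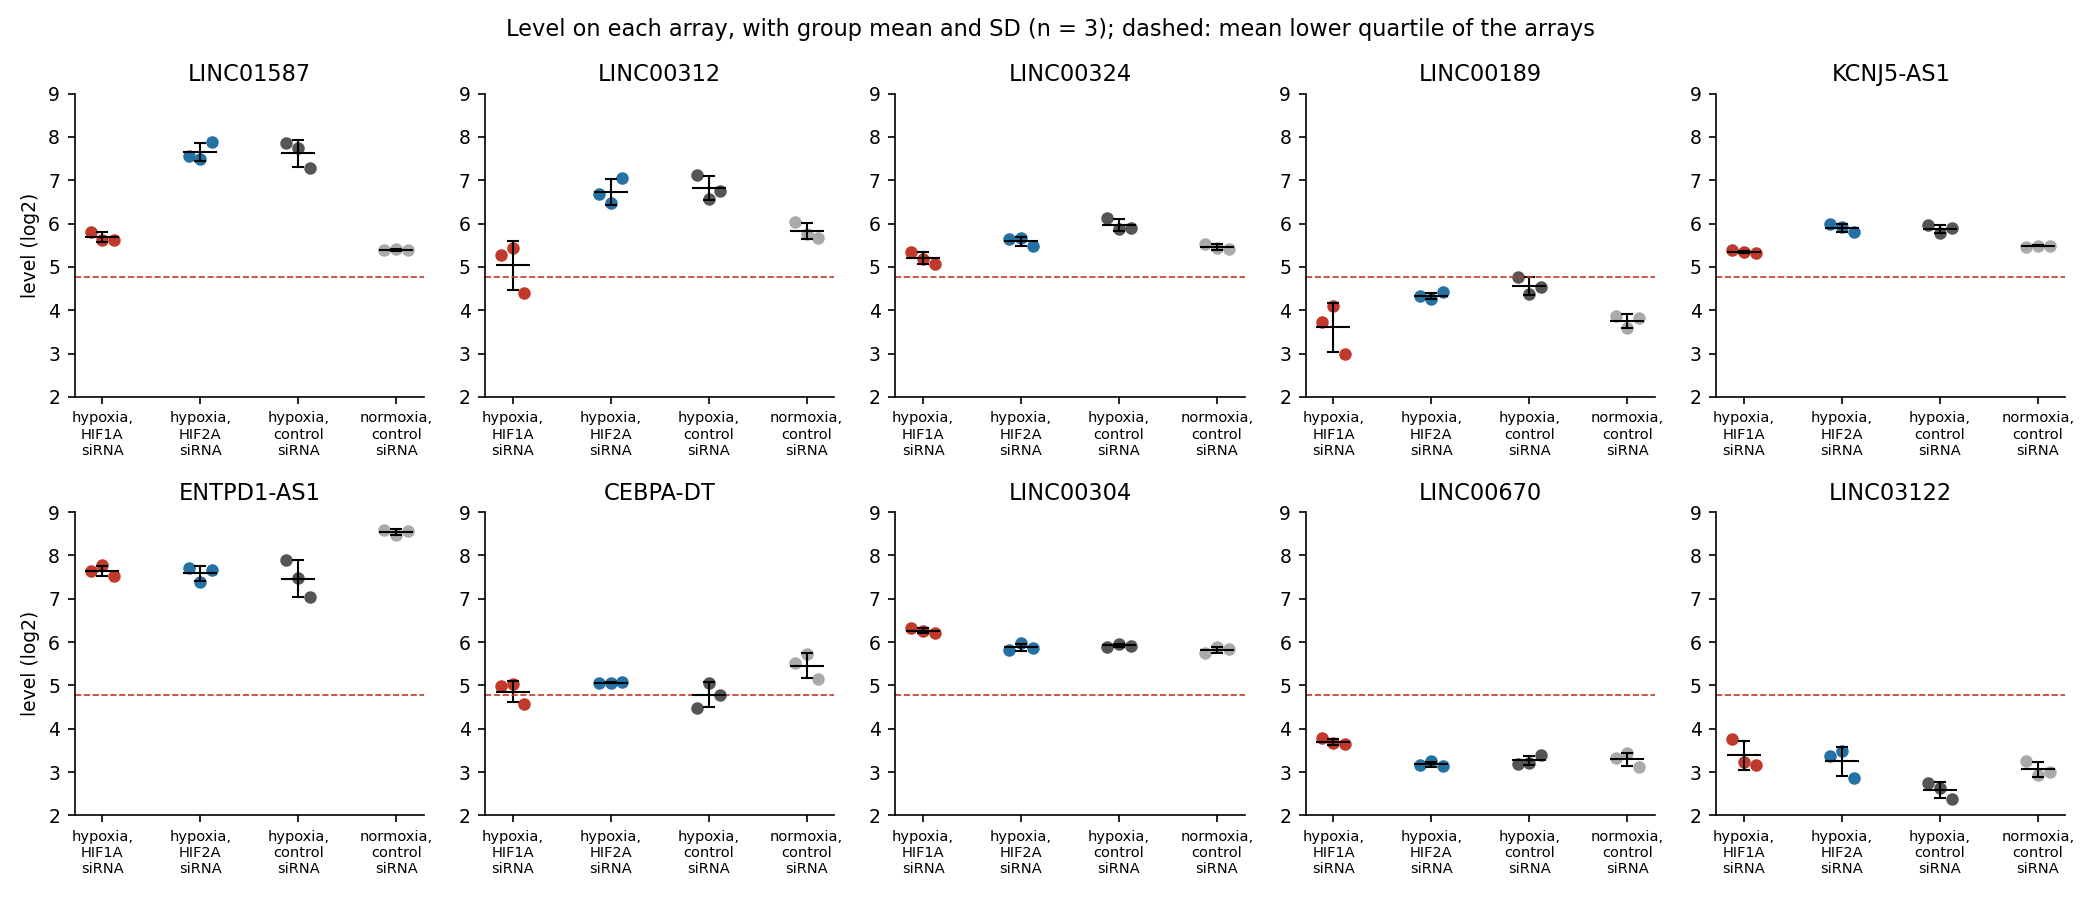
Level (log2) of the 10 noncoding RNAs that passed the test in hypoxia or with HIF1A siRNA, on each of the 12 arrays, with the group mean and SD (n = 3) and a dashed line at the mean lower quartile of the arrays (4.77). The 5 in the upper row are high in hypoxic controls and low with HIF1A siRNA. LINC00189, LINC00670 and LINC03122 lie near or below the dashed line, and the hypoxic arrays of CEBPA-DT lie near it.

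Hypoxia changed 7 of the 217 noncoding RNAs at an adjusted p under 0.05 (3.23%), against 12.3% of all genes. The 5 that rose were LINC01587, LINC00312, LINC00324, LINC00189 and KCNJ5-AS1, where 3.37% of all genes rose, and the 2 that fell were ENTPD1-AS1 and CEBPA-DT, where 8.95% of all genes fell. At an unadjusted p under 0.05 there were 20, against 25.6% of all genes. Hypoxic controls lay above all normoxic arrays for 17 (7.83%), against 12.1% of all genes, and below them for 8 (3.69%), against 26.3%. The median log2 change was 0.03 over the noncoding RNAs and -0.03 over all genes. The share called depended on level for all genes as well: from the lower quartile to the median of the arrays it was 5.05% of the noncoding RNAs and 6.41% of all genes, and below the lower quartile 1.02% and 1.81%. Above the median 1 of 20 noncoding RNAs was called, and 18.9% of all genes.

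LINC00312 on chromosome 3 had the second largest rise among them. It read 5.27, 5.43 and 4.40 with HIF1A siRNA, 6.68, 6.46 and 7.04 with HIF2A siRNA, 7.12, 6.57 and 6.75 in hypoxic controls, and 6.04, 5.77 and 5.67 in normoxia. No HIF1A siRNA array reached the lowest normoxic array, and hypoxic control and HIF2A siRNA arrays overlapped. Its hypoxic rise was 0.99 ± 0.26 (SE, n = 3; limma adjusted p = 0.0301) and was not called without any 1 hypoxic control or normoxic array (adjusted p up to 0.113). Its fall with HIF1A siRNA was 1.78 below hypoxic controls (log2 change -1.78 ± 0.26, limma adjusted p = 0.00258), a 3.44-fold difference that was called in every alternative.

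With HIF1A siRNA, LINC00312 was also below normoxia (-0.80, limma adjusted p = 0.0350). This call was not made without the third HIF1A siRNA array (-0.48, adjusted p = 0.114) or any 1 normoxic array (up to 0.120). Nor was it made with only these groups fitted (0.0724). In RefSeq it overlaps LMCD1, a gene of a LIM-domain transcriptional cofactor. LMCD1 changed by 0.81 in hypoxia (limma adjusted p = 7.7e-04) and by -0.76 with HIF1A siRNA (adjusted p = 0.0017). How strand was handled on these arrays is not given in the sources used here, so signal from the overlapping transcripts cannot be told apart.

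LINC00324 on chromosome 17 read 5.35, 5.17 and 5.07 with HIF1A siRNA, 5.64, 5.66 and 5.48 with HIF2A siRNA, 6.12, 5.88 and 5.89 in hypoxic controls, and 5.53, 5.44 and 5.40 in normoxia. All HIF1A siRNA arrays were below all normoxic arrays, and HIF2A siRNA arrays were below all hypoxic controls. It rose by 0.50 ± 0.11 in hypoxia (SE, n = 3; limma adjusted p = 0.0122, and 0.0577 without the third normoxic array). It fell with HIF1A siRNA (-0.77 ± 0.11, limma adjusted p = 0.00219, and 0.0595 when only these groups were fitted). With HIF2A siRNA the difference was -0.37 (95% interval -0.61 to -0.13), which did not pass limma's adjusted test. Of the genes beside it, AURKB, a mitotic kinase, changed by -0.51 in hypoxia (limma adjusted p = 0.041), and CTC1, of a telomere-binding complex, by -0.33 with HIF1A siRNA (adjusted p = 0.033).

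KCNJ5-AS1 on chromosome 11, antisense to the potassium channel gene KCNJ5, had a small change with a tight spread. It read 5.38, 5.34 and 5.32 with HIF1A siRNA, 5.99, 5.91 and 5.81 with HIF2A siRNA, 5.96, 5.77 and 5.90 in hypoxic controls, and 5.47, 5.49 and 5.49 in normoxia. The HIF1A siRNA arrays lay below every other array. It rose by 0.39 ± 0.09 in hypoxia (SE, n = 3; limma adjusted p = 0.0141), a call not made without hypoxic control array 3 (0.0509) or normoxic array 1 (0.0610) or 3 (0.0554). It fell by 0.53 ± 0.09 with HIF1A siRNA (limma adjusted p = 0.00506, and 0.0968 with only these groups fitted). KCNJ5 itself changed by 0.14 and 0.15 and was not called.

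LINC00189 on chromosome 21 was above the lower quartile on 1 array only. It read 3.73, 4.09 and 2.99 with HIF1A siRNA, 4.32, 4.26 and 4.41 with HIF2A siRNA, 4.78, 4.38 and 4.53 in hypoxic controls, and 3.86, 3.58 and 3.81 in normoxia. HIF1A siRNA and normoxic arrays overlapped, and both lay below the hypoxic controls. Its hypoxic rise of 0.81 ± 0.23 (SE, n = 3; limma adjusted p = 0.0400) was not called without any 1 of the arrays compared (up to 0.126). Its fall with HIF1A siRNA (-0.96 ± 0.23, limma adjusted p = 0.0249) was not called without hypoxic control array 1 (0.115) or 3 (0.0617), nor with only these groups fitted (0.145). Its flanking gene BACH1, a haem-binding transcription repressor, changed by 0.61 in hypoxia (limma adjusted p = 0.0149) and by -0.83 with HIF1A siRNA (adjusted p = 0.0051).

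ENTPD1-AS1 on chromosome 10, antisense to the ectonucleotidase gene ENTPD1, had the largest fall in hypoxia, and its difference with either siRNA did not pass the test. It read 7.63, 7.77 and 7.52 with HIF1A siRNA, 7.71, 7.39 and 7.65 with HIF2A siRNA, 7.88, 7.48 and 7.03 in hypoxic controls, and 8.58, 8.47 and 8.57 in normoxia. Every hypoxic array lay below every normoxic array, and the 3 hypoxic groups overlapped. Its fall in hypoxia was 2.10-fold (log2 change -1.07 ± 0.18, limma adjusted p = 0.00379) and was called in every alternative. The change from hypoxic controls was 0.18 with HIF1A siRNA and 0.12 with HIF2A siRNA (95% interval -0.28 to 0.52), and neither was called. Its level was below normoxia with HIF1A siRNA (-0.90, limma adjusted p = 0.0062) and with HIF2A siRNA (-0.95, adjusted p = 0.0086). ENTPD1 itself was not tested here.

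CEBPA-DT on chromosome 19, divergent from the gene of the transcription factor CEBPA, read 4.98, 5.02 and 4.57 with HIF1A siRNA, 5.04, 5.06 and 5.07 with HIF2A siRNA, 4.49, 5.07 and 4.78 in hypoxic controls, and 5.50, 5.71 and 5.14 in normoxia. All hypoxic arrays lay below the lowest normoxic array. The hypoxic values were near the lower quartile of the arrays. Hypoxic control array 1 (4.49) and HIF1A siRNA array 3 (4.57) were below theirs, at 4.76 and 4.73. Its fall in hypoxia (-0.67 ± 0.18, limma adjusted p = 0.0351) was not called without hypoxic control array 1 (0.108) or 3 (0.0900), without normoxic array 1 (0.118) or 2 (0.125), or with only these groups fitted (0.0624). CEBPA changed by 0.11 and was not called.

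HIF1A siRNA changed 8 of the 217 relative to hypoxic controls (3.69%), against 11.1% of all genes. The 5 that fell were LINC01587, LINC00312, LINC00324, LINC00189 and KCNJ5-AS1, and 3 others rose. The comparison shares its hypoxic control arrays with that of hypoxia and normoxia. Of all genes 10.2% fell and 0.857% rose. At an unadjusted p under 0.05 there were 37, against 30.6% of all genes. The call count was 6 without the third, narrow HIF1A siRNA array, 18 without the second, and 5 without the first, and it was 4 without the first hypoxic control. Over all genes the counts were 607, 2648, 1502 and 390 in the same order, against 1573 with all arrays.

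Each of the 3 that rose with HIF1A siRNA depended on single arrays. LINC00304 on chromosome 16 read 6.32, 6.26 and 6.20 with HIF1A siRNA, 5.80, 5.97 and 5.86 with HIF2A siRNA, 5.89, 5.96 and 5.92 in hypoxic controls, and 5.75, 5.88 and 5.83 in normoxia, so its HIF1A siRNA arrays lay above all others. Its rise was 0.34 ± 0.09 (SE, n = 3; limma adjusted p = 0.0323) and was called when HIF1A siRNA array 2 was left out, but not when any other array of the groups compared was (up to 0.123), nor with only these groups fitted (0.175). LINC00670 on chromosome 17, below the lower quartile on every array, read 3.77, 3.66 and 3.65 with HIF1A siRNA, 3.17, 3.25 and 3.13 with HIF2A siRNA, 3.19, 3.22 and 3.40 in hypoxic controls, and 3.31, 3.44 and 3.13 in normoxia, again with its HIF1A siRNA arrays above all others. It rose by 0.43 ± 0.10 (limma adjusted p = 0.0277). This rise was not called without hypoxic control array 1 (0.120) or 2 (0.0625) or HIF1A siRNA array 1 (0.0576) or 3 (0.0610). Nor was it called with only these groups fitted (0.142).

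LINC03122 on chromosome 5, also below the lower quartile throughout, read 3.77, 3.22 and 3.15 with HIF1A siRNA, 3.38, 3.50 and 2.87 with HIF2A siRNA, 2.74, 2.64 and 2.39 in hypoxic controls, and 3.26, 2.93 and 3.00 in normoxia. The hypoxic controls lay below all other arrays. It was 0.79 ± 0.20 higher with HIF1A siRNA (limma adjusted p = 0.0323). This call was not made without any 1 hypoxic control (up to 0.0959) or HIF1A siRNA array 1 (0.0744), nor with only these groups fitted (0.122). With HIF2A siRNA the difference was 0.66 (95% interval 0.21 to 1.10), which did not pass limma's adjusted test.

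**Figure D3:**
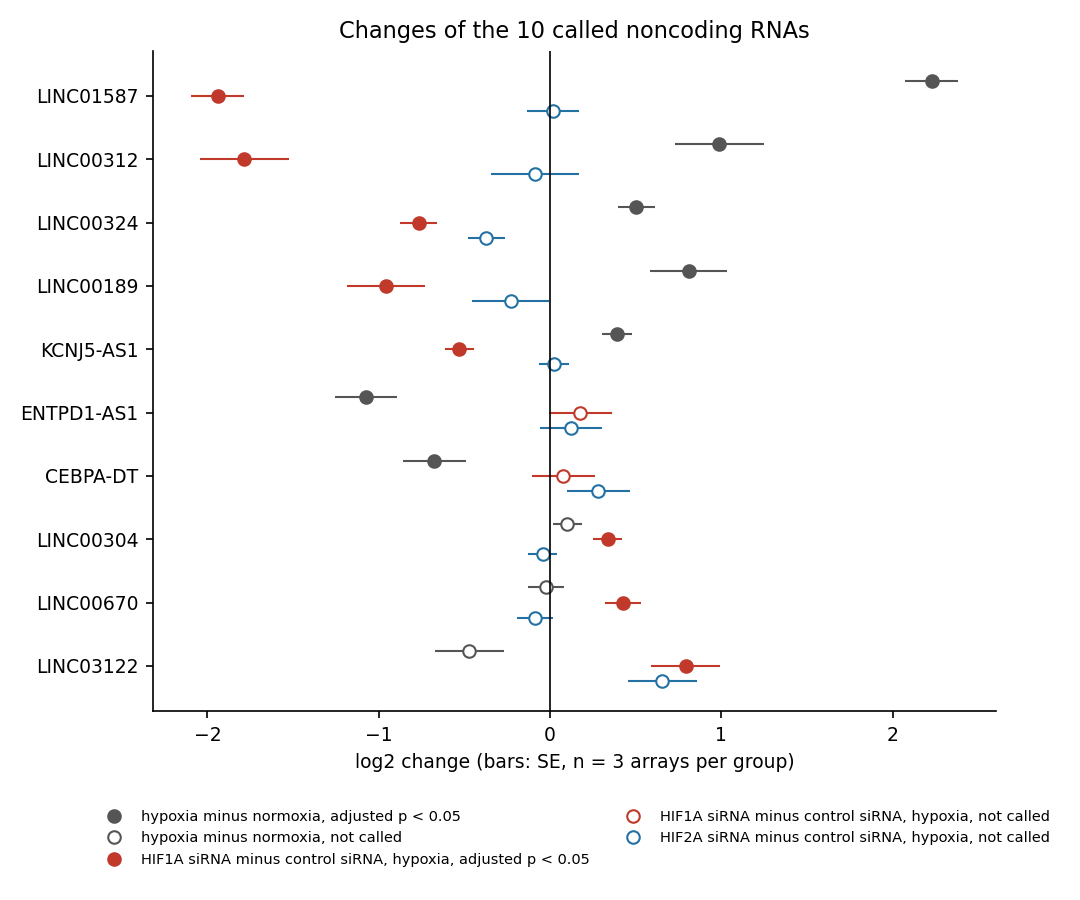
Log2 changes with their SE (n = 3 arrays per group) for the 10 noncoding RNAs called in hypoxia or with HIF1A siRNA; filled points passed an adjusted p under 0.05 and open points did not. LINC01587 lies at 2.23 for hypoxia, -1.94 for HIF1A siRNA and 0.02 for HIF2A siRNA, and no point for HIF2A siRNA is filled.

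With HIF1A siRNA the median change was positive over the noncoding RNAs and negative over all genes. The change was positive for 64.5% of them and for 43.9% of all genes, with a median log2 change of 0.09 and -0.05. Without the third HIF1A siRNA array, the one of narrow range, the medians were 0.07 and 0.00. Whether the medians by level given below change without that array was not tested. On all 3 HIF1A siRNA arrays 34 (15.7%) lay above all hypoxic controls, against 11.0% of all genes, and 14 (6.45%) lay below them, against 19.8%. The difference was also read by level, and whether level accounts for it was not tested. Below the lower quartile the median change was 0.08 for the 98 noncoding RNAs and 0.08 for all 2708 genes there. From the lower quartile to the median it was 0.09 for 99 and 0.10 for 3792. Above the median it was 0.14 for 20 noncoding RNAs and -0.22 for 7732 genes. The sign over all genes turned with scaling: their median was 0.07 after quantile normalization and after centring arrays on their medians, and that of the noncoding RNAs was then 0.11 and 0.21. Calls among the noncoding RNAs were then 7 up and 6 down, and 11 up and 5 down, against 3 up and 5 down as deposited. All genes called were then 1850 and 1781, against 1573. Their split by direction after scaling is not given here, so these counts do not show a shift particular to the noncoding RNAs.

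**Figure D4:**
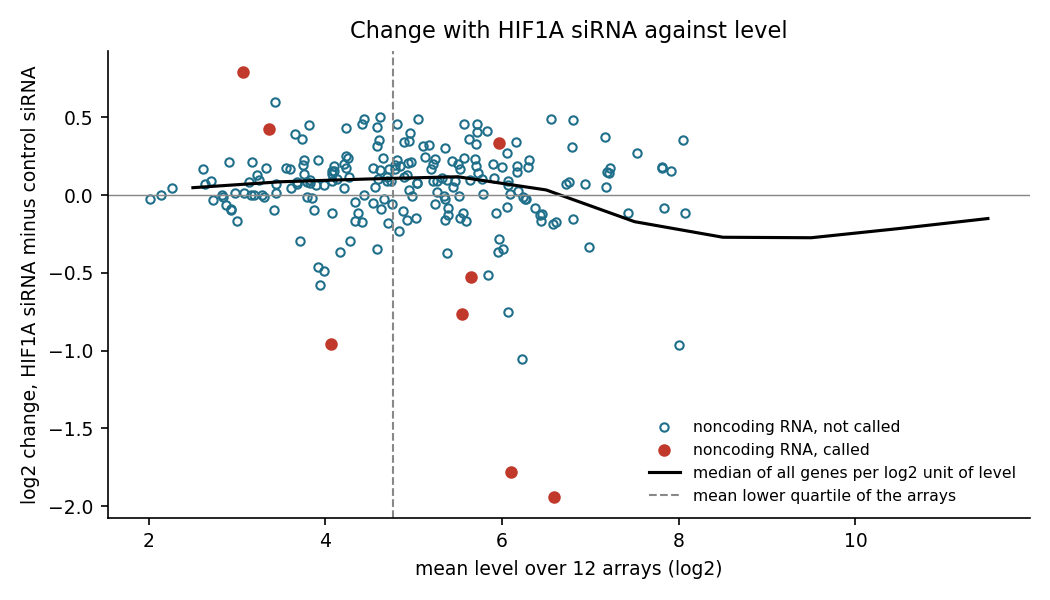
Log2 change with HIF1A siRNA against hypoxic controls (vertical axis) by mean level over 12 arrays (horizontal axis, log2) for the 217 noncoding RNAs, with called ones filled and a line at the median of all genes in each log2 unit of level. The line lies near 0.1 at low levels, 0.12 between 5 and 6, and -0.27 between 8 and 9, where few noncoding RNAs lie.

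A pair of brighter antisense RNAs had large HIF1A siRNA differences that were not called. ZNF667-AS1 read 7.15, 8.23 and 6.94 with HIF1A siRNA, 8.61, 7.72 and 8.66 with HIF2A siRNA, 8.64, 8.26 and 8.30 in hypoxic controls, and 7.97, 7.97 and 7.62 in normoxia. The second HIF1A siRNA array, at 8.23, nearly reached the hypoxic controls, and the difference was -0.96 (limma adjusted p = 0.0791). KRT10-AS1, named for its size after values were seen, read 5.26, 6.41 and 4.88 with HIF1A siRNA and 6.94, 6.34 and 6.43 in hypoxic controls. Its groups overlapped through the same second array (-1.05, limma adjusted p = 0.063).

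The 3 miRNA host genes did not change by the test in hypoxia or with either siRNA. Their place is to carry a miRNA, and the mature sequences that RefSeq gives for 2 of them (build GRCh38.p14) are shown with the seed, bases 2 to 8, in capitals. The mature miRNAs themselves were not measured as such, and the 2 seeds differ.
hsa-miR-600 (MIR600HG, chr9:123111561-123111583, minus strand): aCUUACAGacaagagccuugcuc
hsa-miR-646 (MIR646HG, chr20:60308534-60308552, plus strand): aAGCAGCUgccucugaggc

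MIR600HG read 5.32, 5.74 and 5.77 with HIF1A siRNA, 5.80, 5.53 and 6.30 with HIF2A siRNA, 6.54, 6.10 and 5.74 in hypoxic controls, and 5.72, 5.95 and 5.55 in normoxia. All groups overlapped, and the HIF1A siRNA difference was -0.51 (limma adjusted p = 0.165). MIR3667HG stayed between 5.87 and 6.37 on all arrays. MIR646HG stayed between 3.53 and 4.08, below the lower quartile. Its changes were -0.18 in hypoxia and 0.09 with HIF1A siRNA.

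HIF2A siRNA changed 0 of the 217 by limma's test at an adjusted p under 0.05, against 0.00703% of all genes, which is 1 gene. The count was 0 under every alternative. At an unadjusted p under 0.05 there were 6 (of all genes, 3.53%). The median change was -0.00 over the noncoding RNAs and -0.01 over all genes, and single changes ran from -0.64 to 0.66. The 95% interval for KCNJ5-AS1 ran from -0.17 to 0.22.

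Set directly against HIF2A siRNA, HIF1A siRNA left 7 noncoding RNAs higher (all genes, 0.899%) and 4 lower (all genes, 8.53%), against 9.43% of all genes called in all. Besides LINC01587, LINC00312, LINC00324 and KCNJ5-AS1, which were lower, this brought in AGPAT4-IT1, IRAG1-AS1 and CTDP1-DT, which were higher. The LINC00324 call was not made without any 1 of 5 of the 6 arrays compared (up to 0.148), after median-centring (-0.26, 0.0876) or with only these groups fitted (0.169), and the last also ended those of LINC00312 (0.0548) and KCNJ5-AS1 (0.0916). AGPAT4-IT1, an intronic transcript of a lysophosphatidic acid acyltransferase gene, read 4.75, 5.33 and 5.35 with HIF1A siRNA and 4.62, 4.20 and 4.18 with HIF2A siRNA (difference 0.81, limma adjusted p = 0.0306). IRAG1-AS1 read 7.36, 7.10 and 7.39 with HIF1A siRNA and 6.58, 6.88 and 6.05 with HIF2A siRNA (0.78, adjusted p = 0.048 by limma). Neither call was made with only these groups fitted, without HIF1A siRNA array 3 (0.114 and 0.149), or without HIF2A siRNA array 1 or 3 (up to 0.129 and 0.184). AGPAT4-IT1 was also not called without HIF2A siRNA array 2 (0.0554), nor IRAG1-AS1 without HIF1A siRNA array 1 (0.0831). CD300LD-AS1 and LINC02716, named because they complete the count with LINC00304 and LINC00670, were also higher. Leaving out 1 array kept between 3 and 9 of these 11 calls, and fitting only these groups kept 1. The CTDP1-DT call was absent without HIF1A siRNA array 2 or 3 or HIF2A siRNA array 1 or 3 (up to 0.122). It was also absent with only these groups fitted (limma adjusted p = 0.102).

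Each siRNA group was also set against normoxia, as in the authors' own design. With HIF1A siRNA 20 noncoding RNAs were called (9.22%), against 35.0% of all genes. They were 16 higher, against 4.67% of all genes, and 4 lower, against 30.4%. Leaving out 1 array kept between 6 and 19 of the 20. The median change was 0.12 for the noncoding RNAs and -0.12 for all genes. CTDP1-DT, divergent from a gene for a phosphatase of RNA polymerase II, read 6.16, 6.40 and 6.20 with HIF1A siRNA and 5.48, 5.72 and 5.41 in normoxia, with no overlap (0.71, limma adjusted p = 0.0056). PAX8-AS1 was lower (-0.43, limma adjusted p = 0.0272), but not called after quantile normalization (-0.19, adjusted p = 0.374) or centring (-0.25, 0.176), nor without any 1 normoxic array (up to 0.0734) or HIF1A siRNA array 1 (0.0564) or 2 (0.0802).

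With HIF2A siRNA 4 noncoding RNAs differed from normoxia (1.84%), against 9.64% of all genes. They were LINC01587 (2.25) and KCNJ5-AS1 (0.42, limma adjusted p = 0.0125; not called without HIF2A siRNA array 1, 0.0573, or normoxic array 1, 0.0585, or 3, 0.0534), which were higher (all genes, 2.85%), and ENTPD1-AS1 and ZNF295-AS1, which were lower (all genes, 6.79%). ZNF295-AS1 read 4.92, 4.73 and 4.91 with HIF1A siRNA, 3.52, 4.21 and 4.40 with HIF2A siRNA, 4.20, 4.97 and 4.89 in hypoxic controls, and 6.11, 5.70 and 4.87 in normoxia. HIF2A siRNA and normoxic arrays did not overlap (-1.51, limma adjusted p = 0.0138; not called without HIF2A siRNA array 1, 0.0559, or normoxic array 1, 0.0643, or 2, 0.0535), while the hypoxic controls overlapped with both groups.

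Partner genes, whose symbol is the noncoding RNA's without its suffix, were measured in 73 pairs. Of the 72 partners 9 were called in hypoxia, 5 higher (all genes, 3.37%) and 4 lower (all genes, 8.95%). With HIF1A siRNA 8 were called, 1 higher (all genes, 0.857%) and 7 lower (all genes, 10.2%). Taken without direction, the shares were close to the 12.3% and 11.1% of all genes. Of the paired noncoding RNAs 2 were called in hypoxia and 1 with HIF1A siRNA, so pairs with both called could hardly be looked for, and there were 0. The partners named below all had positive changes in hypoxia and negative ones with HIF1A siRNA. None of the 4 called lower in hypoxia is named. ETS2, a transcription factor gene, changed by 0.69 in hypoxia (limma adjusted p = 0.009) and -1.27 with HIF1A siRNA, while ETS2-AS1 changed by -0.12 and -0.58. FOXN3, of the forkhead family, changed by 0.60 and -1.22, and FOXN3-AS2 by 0.31 and -0.04. GSN, which encodes the actin-severing protein gelsolin, changed by 0.69 and -0.50, and GSN-AS1 by 0.15 and 0.22. In the pair of ZNF667 and ZNF667-AS1 the changes were 1.15 and 0.55 in hypoxia and -1.40 and -0.96 with HIF1A siRNA, where the partner's were called and the antisense transcript's were not.

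Partner and noncoding RNA also differed in level, with medians of 7.30 and 5.04, so the pairs were unequal in signal. They carry the same limit on strand as above. Around the 10 called noncoding RNAs, RefSeq's overlapping and flanking genes (looked up after their calls were known) gave 21 tested neighbours, of which 4 were called in hypoxia (all genes, 12.3%), 3 with HIF1A siRNA (all genes, 11.1%) and 0 with HIF2A siRNA (all genes, 0.00703%) by limma; such small counts show nothing particular to neighbours. Beside those given above, KIF2A, a kinesin gene next to LINC03122, was lower in hypoxia (-0.70, limma adjusted p = 0.046).

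**Figure D5:**
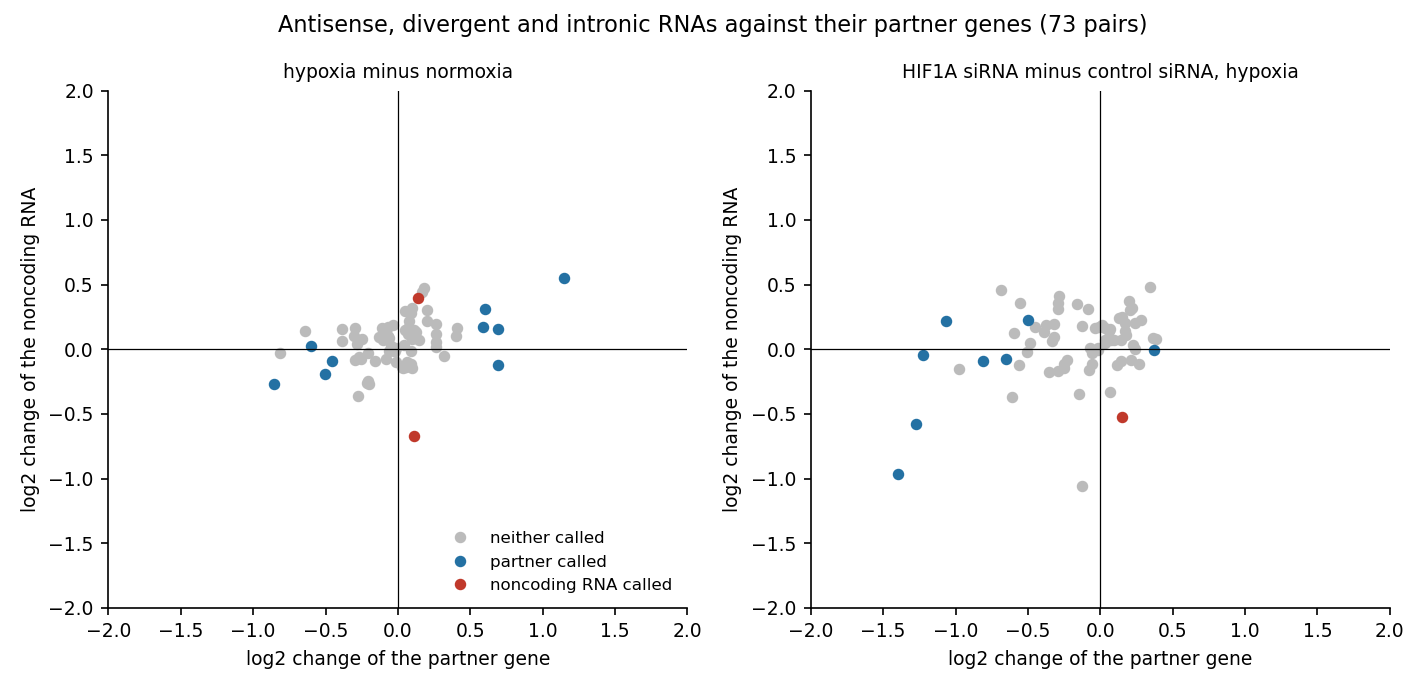
Log2 change of antisense, divergent and intronic RNAs (vertical axis) against that of their partner gene (horizontal axis) in 73 pairs, in hypoxia against normoxia (left) and with HIF1A siRNA against hypoxic controls (right); colour shows which of the pair was called. No pair has both called, and the partners with the largest changes under HIF1A siRNA (ZNF667, ETS2 and FOXN3) sit beside uncalled noncoding RNAs.

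Stretches before the starts of 3 noncoding RNAs that changed are shown because HIF dimers are known to bind the core ACGTG or GCGTG. The windows are RefSeq's (GRCh38.p14), 250 bases before to 50 after the start, on the transcript's strand. Capitals mark ACGTG or GCGTG, which reads CACGT or CACGC on the other strand.
LINC01587 (chr4:5524319-5524618, plus strand): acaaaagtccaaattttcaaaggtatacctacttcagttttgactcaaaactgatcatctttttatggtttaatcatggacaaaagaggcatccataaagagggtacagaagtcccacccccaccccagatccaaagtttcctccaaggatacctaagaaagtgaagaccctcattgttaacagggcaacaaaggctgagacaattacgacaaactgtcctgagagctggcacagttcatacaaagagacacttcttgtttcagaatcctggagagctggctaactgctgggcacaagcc
KCNJ5-AS1 (chr11:128905660-128905959, minus strand): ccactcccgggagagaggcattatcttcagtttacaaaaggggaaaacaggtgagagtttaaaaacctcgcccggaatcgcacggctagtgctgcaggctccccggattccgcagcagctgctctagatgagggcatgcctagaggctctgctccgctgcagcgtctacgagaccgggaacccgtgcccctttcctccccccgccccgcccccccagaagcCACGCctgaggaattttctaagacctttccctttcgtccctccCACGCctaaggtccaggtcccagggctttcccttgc
ENTPD1-AS1 (chr10:96090186-96090485, minus strand): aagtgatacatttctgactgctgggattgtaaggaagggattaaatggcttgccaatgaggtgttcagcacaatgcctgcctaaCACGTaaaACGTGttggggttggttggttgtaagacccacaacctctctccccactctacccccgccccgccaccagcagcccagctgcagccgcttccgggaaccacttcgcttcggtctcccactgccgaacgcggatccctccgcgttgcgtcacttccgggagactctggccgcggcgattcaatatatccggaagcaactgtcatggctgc

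The LINC01587 window holds neither form, although its change was the largest. KCNJ5-AS1 has 2 matches to GCGTG in this window and 0 in its other window. ENTPD1-AS1, which fell, has 2 matches to ACGTG. Of the 6 windows of the 5 RNAs that rose in hypoxia, 1 held a match, counting both strands and overlapping matches. At least 1 match stood in 48.3% of 180 windows of 157 of the noncoding RNAs and in 48.4% of all 35116 windows of the same length. A match is a description of letters and no match speaks only of this window.

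Other genes of noncoding RNA biology were read from lists, beside the 10.2% of all genes that fell with HIF1A siRNA. Among genes with a mean level above the array median, 1207 of 7732 fell. The 6 decay factors and 3 of the 4 snoRNA particle proteins below were above that median on every array. Of 27 further long noncoding RNAs outside the naming rule, 5 had a single-symbol probe set, 0 were called in hypoxia and 1 fell with HIF1A siRNA: TUG1, an abundant nuclear and cytoplasmic RNA (-0.70, limma adjusted p = 0.038). Another of the 5 had a larger fall with HIF1A siRNA (-1.31) that was not called. MALAT1, of nuclear speckles, changed by 0.36 and -0.38 and was not called. Of 4 measured proteins of snoRNA particles, FBL, the methyltransferase of box C/D particles, fell with HIF1A siRNA (-0.80, limma adjusted p = 0.008). Of 6 measured factors of nonsense-mediated decay, which clears many spliced noncoding RNAs, 3 fell with HIF1A siRNA: UPF2 (-0.86), SMG6 (-0.45) and SMG8 (-0.62), with limma adjusted p between 0.031 and 0.048. Whether the calls of these listed genes hold under the alternative settings was not tested. With only the 2 groups fitted, 137 of all genes were called in this comparison, against 1573. No snoRNA particle protein, decay factor or member of the 10 miRNA processing genes was called in hypoxia by limma, and none of the miRNA processing genes with HIF1A siRNA; DROSHA was closest in hypoxia (-0.59, adjusted p = 0.061).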

How the data were processed

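RNA from 12 LN229 samples was hybridised to Affymetrix whole-transcript arrays, per the labels' protocols. The deposited values were used as log2 expression of 22011 probe sets; base 2 was inferred from their range (1.14 to 14.3). Partek and hg18 are named in the submitters' processing notes. How background was corrected and values normalized or filtered is not given in the sources used here. The platform annotation gives 14432 probe sets 1 symbol, 2408 several and 5171 none. Gene IDs were looked up in RefSeq (GRCh38.p14), where 14404 were found and 0 symbols changed. Taking the probe set with the highest mean left 14232 genes; PRDM16-DT was the 1 noncoding RNA with several probe sets.

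A mean per group was fitted over all 12 arrays and 22011 probe sets with limma 3.58.1 (R 4.3.3), with eBayes and Benjamini-Hochberg adjustment over the 14232 genes within each comparison, and called at 0.05. Errors are limma's SE and 95% intervals; the number of arrays limits the precision. The code was tested on simulated data. The noncoding RNAs, the gene lists and the settings were chosen with earlier results of these data known. Named noncoding RNAs were LINC01587, MIR210HG, the 20 brightest, the called ones of each main comparison, the miRNA hosts, and each class's largest called change; other genes named were partners with their noncoding RNAs, listed genes, and, chosen after values were seen, neighbours, the lowest levels, KRT10-AS1, CD300LD-AS1 and LINC02716.

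Alternatives were quantile normalization, median-centring, genes above the lower quartile only, only the 2 groups compared, a replicate block, a variance trend, and leaving out each array. Calls of partner, flanking and listed genes were not checked under them. Replicate numbers did not pair the samples: of 18 same-numbered pairs of arrays, deviations correlated at r = -0.49 to 0.60, and over 0.1 in 6.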

Additional observations from a re-analysis of the deposited data

How the results depend on the processing

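Of 38 called values of named noncoding RNAs, 10 were called under every alternative; of their 450 alternatives 335 kept the call, 115 did not and 0 reversed. Of 90 values not called, 11 of 1072 alternatives became calls. Counts of called noncoding RNAs moved by over 1.5 times as follows; the cause was not tested. For HIF1A siRNA against control siRNA (8) they were 13 after quantile normalization, 16 after median-centring and 2 with only these groups. Calls over all 14232 genes were then 1850, 1781 and 137, against 1573 as deposited. For HIF1A siRNA against HIF2A siRNA (11) they were 18, 19 and 1, and 7 with the replicate block. Over all genes (1342) they were 1780, 1740, 127 and 1101. For HIF1A siRNA against normoxia (20) they were 31 and 55 after quantile normalization and centring. There the calls of all genes moved to 4323 and 6188 from 4986, and their median to 0.08 and 0.06 from -0.12. For HIF2A siRNA against normoxia (4) centring gave 7 (all genes, 1774 against 1372). The count for hypoxia against normoxia (7) stayed within 1.5 times under these settings, and that for HIF2A siRNA against control siRNA was 0 in all. With the replicate block the counts were 6 for hypoxia and 9 for HIF1A siRNA against control siRNA (all genes, 1720 and 1266). Against normoxia the block gave 20 for HIF1A siRNA and 5 for HIF2A siRNA (all genes, 4827 and 1299). It ended the calls of LINC00189 in hypoxia (adjusted p = 0.0567 by limma) and of AGPAT4-IT1 (0.0513) and IRAG1-AS1 (0.0618) between the siRNAs. Leaving out 1 array gave 3 to 6 for hypoxia, 4 to 18 for HIF1A siRNA against control siRNA, 0 for HIF2A siRNA against control siRNA, 3 to 19 between the siRNAs, 8 to 27 for HIF1A siRNA against normoxia and 2 to 5 for HIF2A siRNA against normoxia. With the array median in place of the lower quartile, 13 of the noncoding RNAs were above it on all arrays, and after quantile normalization 94 were above the lower quartile. Of the noncoding RNAs 70 were below the lower quartile on every array.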
